A study of Mus musculus with 12 samples.

Results

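The maternally expressed miRNAs that lie around and antisense to the retrotransposon-derived gene Rtl1 were described in mouse skin after ultraviolet B (UVB) irradiation. The set holds 10 mature miRNA arms of the 1519 in the deposited table. They are both arms of miR-127, miR-434, miR-136 and miR-337, together with miR-431-5p and miR-433-3p. They were chosen by name for their place in the genome, with earlier results of these data known. All 10 passed the filter on low values, which kept 590 of the 1519 arms. The samples were skin of C57BL/6 mice aged 6 to 8 weeks with no engineered allele named in the labels. By dose, the control group received 0 mJ/cm2 and is labelled untreated, and the irradiated groups received UVB at 90 mJ/cm2 (U90), 180 mJ/cm2 (U180) or 360 mJ/cm2 (U360). Each of the 4 groups had 3 small RNA libraries. No label read here gives the interval between irradiation and sampling or says whether each library came from a separate animal, so p-values measure the spread between these libraries, which may be technical.

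The Dlk1-Dio3 domain is an imprinted region: Dlk1, Rtl1 and Dio3 are transcribed from the paternal chromosome, and the noncoding transcripts Meg3, Rtl1 antisense, Rian and Mirg, with their many miRNAs, from the maternal one. A miRNA hairpin is cut by Drosha and then Dicer into a duplex of a 5p and a 3p arm, and usually 1 arm is retained in an Argonaute protein, where bases 2 to 8, the seed, direct the pairing with target mRNAs. The Rtl1 antisense miRNAs are best known for full complementarity to Rtl1 mRNA, which in mouse lets them direct its cleavage, and Rtl1 itself is needed in the mouse for placental vessels and fetal muscle. The level of a miRNA in whole skin can differ through fewer cells of a type or through less RNA per cell, and bulk libraries cannot tell these apart.

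The mature sequences are shown first because many of the results turn on arms of the same hairpin, which carry unrelated seeds. All 10 arms matched a RefSeq entry (GRCm38.p6), written 5′ to 3′ with the seed in capitals. The species prefix mmu- is left out elsewhere.
mmu-miR-127-5p: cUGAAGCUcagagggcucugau
mmu-miR-127-3p: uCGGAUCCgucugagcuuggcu
mmu-miR-434-5p: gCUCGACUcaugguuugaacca
mmu-miR-434-3p: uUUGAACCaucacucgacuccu
mmu-miR-136-5p: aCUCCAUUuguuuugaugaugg
mmu-miR-136-3p: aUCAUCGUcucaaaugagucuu
mmu-miR-337-5p: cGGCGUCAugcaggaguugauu
mmu-miR-337-3p: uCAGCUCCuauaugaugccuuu
mmu-miR-431-5p: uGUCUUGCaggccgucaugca
mmu-miR-433-3p: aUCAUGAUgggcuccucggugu
The arms are 21 or 22 bases long and have 10 distinct seeds, and none shares its seed with another arm of the table that has a RefSeq sequence. None of the 10 had values identical to those of another arm.

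The hairpins of miR-127 and miR-136 are shown because the largest differences in arm balance within the set were theirs, with the mature arms in capitals.
miR-127 hairpin: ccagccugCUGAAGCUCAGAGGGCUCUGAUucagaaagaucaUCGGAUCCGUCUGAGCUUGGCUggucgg
miR-136 hairpin: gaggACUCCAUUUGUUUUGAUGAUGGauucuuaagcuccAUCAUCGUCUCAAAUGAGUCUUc
In the miR-127 hairpin of 70 bases, 12 bases separate the arms, and in the miR-136 hairpin of 62 bases, 13 bases do.

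The position of the hairpins was checked against the label of the set. On GRCm38 all 6 lie on the + strand of chromosome 12, and Rtl1 lies on the − strand at chr12:109589193-109600330 (GENCODE vM21). The hairpins of miR-431 (chr12:109590447-109590537), miR-433 (chr12:109591715-109591838), miR-127 (chr12:109592846-109592915), miR-434 (chr12:109594506-109594599) and miR-136 (chr12:109595327-109595388) are opposite the Rtl1 coding sequence, in exon 2. The miR-136 hairpin faces bases 16 to 77 of that coding sequence, so it belongs to the antisense group by position. The miR-337 hairpin (chr12:109585789-109585885) lies 3308 bases beyond the end of Rtl1 and is not antisense to the annotated gene. Correspondingly 8 of the 10 arms match Rtl1 mRNA over their whole length as reverse complements, at 1 place each, and the arms of miR-337 do not match. The sites of the arms whose levels moved in opposite directions are shown as examples, with the bases that pair with the seed in capitals.
Rtl1 site of miR-127-5p, coding bases 2529 to 2550: atcagagccctctgAGCTTCAg
Rtl1 site of miR-127-3p, coding bases 2495 to 2516: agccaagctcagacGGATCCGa
Rtl1 site of miR-136-5p, coding bases 52 to 73: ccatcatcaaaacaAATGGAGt
Rtl1 site of miR-136-3p, coding bases 17 to 38: aagactcatttgagACGATGAt
Rtl1 mRNA was not measured in these small RNA libraries.

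**Figure D1:**
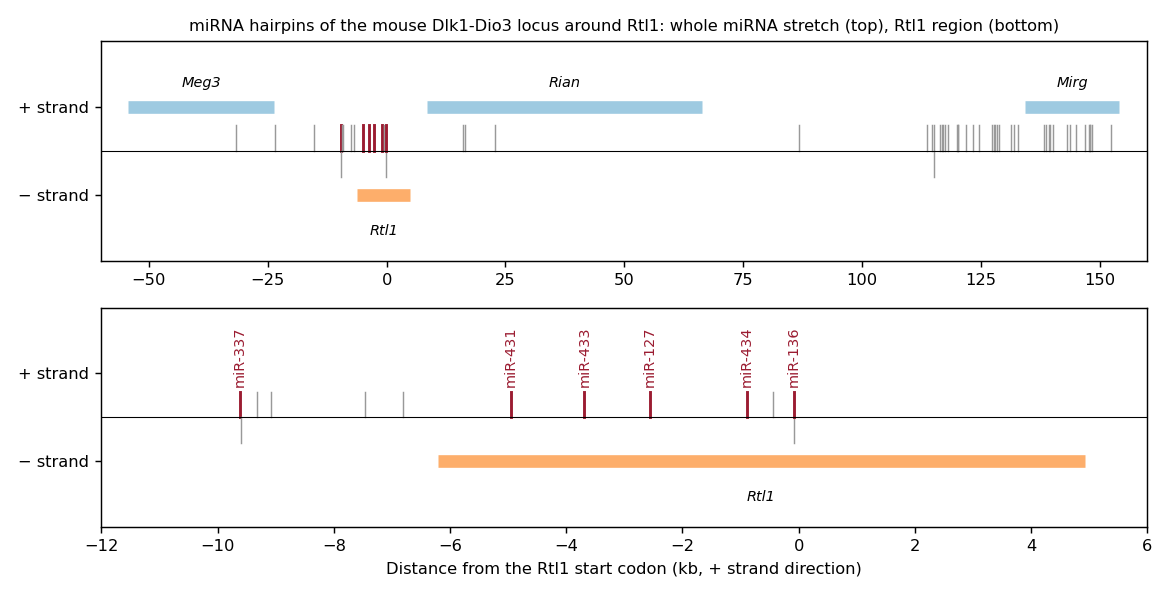
miRNA hairpins (vertical ticks) and genes (bars) of the Dlk1-Dio3 locus by distance in kb from the Rtl1 start codon, + strand features above the line and − strand features below; the hairpins of the 10 arms are red and other miRNA hairpins grey. Of the 6 red hairpins, 5 stand over the Rtl1 bar, and miR-337 stands outside it.

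The libraries held 3164422 to 8063815 miRNA reads, and the 10 arms together took 0.243% to 0.366% of them. Values are CPM, read counts scaled by the authors to a fixed total of miRNA reads per library, as deposited. The arms ranked between 69 (miR-434-5p) and 360 (miR-337-3p) of 1519 by mean CPM, and the number of reads per library ran from 18 for miR-337-3p to 5896 for miR-434-5p. Each arm was compared on log2(CPM + 1), with limma and a Benjamini-Hochberg adjusted p under 0.05 over all 590 arms as the threshold. A fold change on this scale understates the change of low arms such as miR-337-3p. U90 replicate 3 and U180 replicate 1 stood apart from the other libraries of their groups in epithelial markers, whose summed level was 28121 CPM in U90 replicate 3 and 41085 CPM in U180 replicate 1. In the remaining U90 libraries that sum was 81697 and 88669 CPM, and in the remaining U180 libraries 90429 and 95199.7 CPM. Without both libraries the number of the 10 arms called was 1 at U90, 5 at U180 and 4 at U360. Among controls, replicate 3 had the lowest values of miR-127-5p, miR-136-5p, miR-136-3p and miR-337-3p, and replicate 1 the highest.

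The arms called against control were all lower at U90 and went in both directions at U180 and U360. This is a contrast in which arms passed the threshold, since 0 of 10 arms differed between U180 and U90. In U90 skin miR-127-5p, miR-136-5p, miR-136-3p and miR-337-3p fell and no arm rose, which is 0 higher and 4 lower of 10, against 25.6% of all tested arms called in either direction, 13.2% higher and 12.4% lower. At an unadjusted p under 0.05, 3 arms were higher in U90, and on recovered reads edgeR called 0 higher and DESeq2 called 2 (miR-127-3p and miR-433-3p). In U180 skin miR-127-3p, miR-434-5p, miR-431-5p and miR-433-3p rose, and miR-127-5p, miR-136-3p and miR-337-3p fell, with a background of 30.7% called, 16.6% higher and 14.1% lower. On recovered reads edgeR called 1 higher and 3 lower at U180, so that of the 4 rises only that of miR-127-3p passed, and DESeq2 called 4 higher and 3 lower. In U360 skin miR-431-5p, miR-434-5p and miR-136-5p rose and miR-136-3p fell, with a background of 39.8% called, 20.2% higher and 19.7% lower. The split at U360 depended on the test and the scaling. With TMM scaling factors included, edgeR called 1 higher and 3 lower. In that fit miR-431-5p rose, miR-136-3p, miR-127-5p and miR-337-3p fell, and miR-434-5p and miR-136-5p did not pass. DESeq2 called 2 higher and 1 lower at U360, without miR-136-5p. The share of the set called was thus above that of all tested arms at U90 and U180 and level with it at U360. The set was chosen with earlier results of these data known, so this share is a description only. The partner arms left out of the set, miR-431-3p and miR-433-5p, did not pass at U90 or U180, and miR-433-5p rose at U360. The background of all tested arms includes scarcer arms. With a filter of 10 CPM, 67 arms rose and 68 fell of 353 at U90, beside 1 and 3 of 9 arms of the set. The near list, described below, had 0 higher and 1 lower of 10 at U90. It had 1 and 1 of 10 at U180, and 4 and 1 of 10 at U360. Whether the set differed from other arms of similar level was not tested. Of the calls over all arms 51.7%, 54.1% and 50.6% were higher at U90, U180 and U360, against 42.7%, 41.2% and 41.1% with TMM scaling and 60%, 63.3% and 65.2% with totals that leave out miR-21a-5p and miR-1a-3p. Of the 10 arms, TMM scaling called 0 higher and 4 lower at U90, 2 higher and 3 lower at U180, and 2 higher and 1 lower at U360, and the reduced totals called 1 higher and 0 lower, 4 higher and 2 lower, and 3 higher and 0 lower. The median log2 fold change of the 10 arms was 0.31 at U90, 0.31 at U180 and 0.24 at U360, beside 0.04, 0.06 and 0.02 over all tested arms. An F test over the 4 groups called 7 of the 10, all but miR-434-3p, miR-337-5p and miR-433-3p, with a background of 40.2%. The arms whose irradiated and control libraries did not overlap numbered 6 of 10 at U90, 8 at U180 and 3 at U360, with backgrounds of 37.6%, 42.5% and 49.3%.

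These counts depended on single libraries. Without control replicate 1, limma called 0 of 10 arms at U90, 0 at U180 and 3 at U360, and without control replicate 3 it called 6, 6 and 5. At U90 it called 2 without control replicate 2, 1 without U90 replicate 1, 0 without U90 replicate 2, and 3 without U90 replicate 3. At U180 it called 3 without U180 replicate 2 and 2 without U180 replicate 3, and at U360 it called 2 without control replicate 2. With each library left out in turn the F test called 2 to 7 arms, the fewest without control replicate 1.

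**Figure D2:**
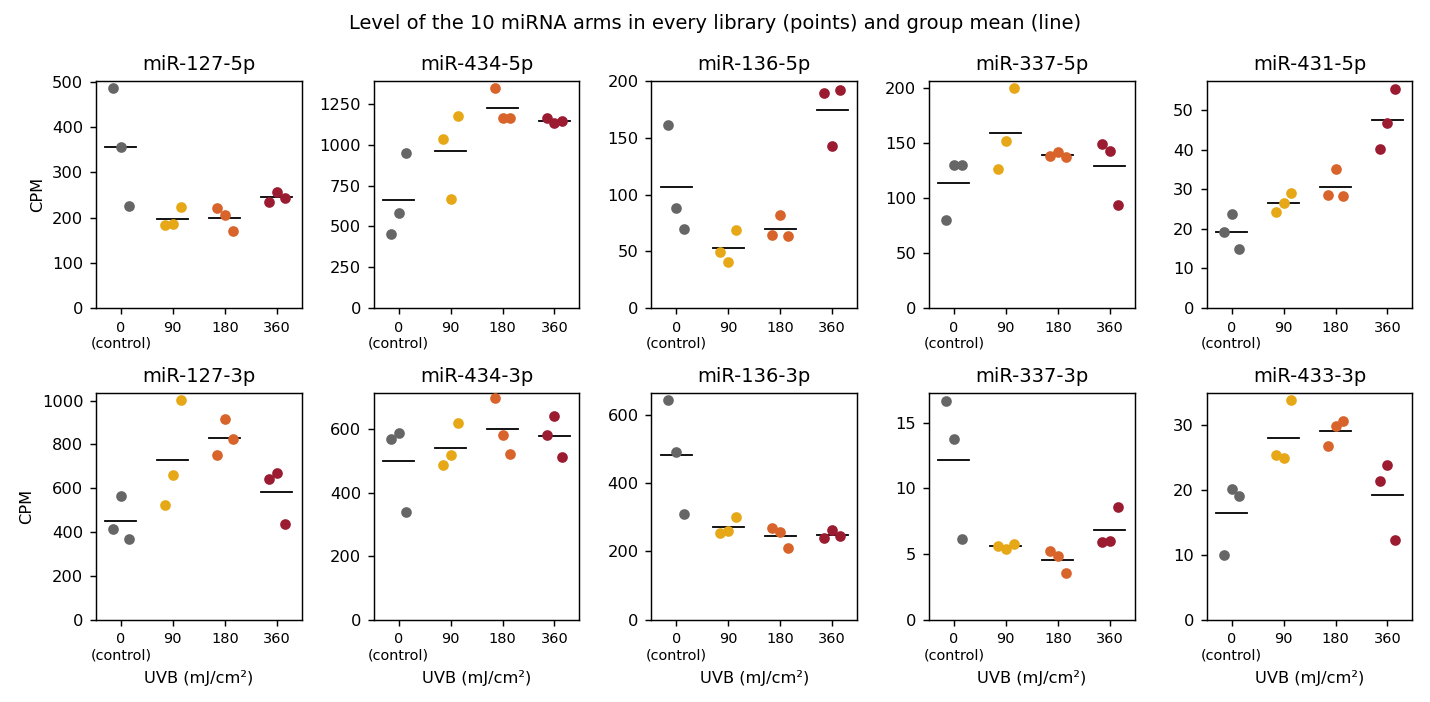
Level in CPM on linear axes starting at 0 (y) of the 10 arms in each library by UVB dose (x); points are libraries, lines are means of 3 libraries. The 3 U360 libraries of miR-431-5p sit at 40.2 to 55.3 CPM, above every other library of that arm, and the irradiated libraries of miR-136-3p sit at 301 CPM or less, below the lowest control at 309 CPM.

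miR-127, which lies in the middle of the Rtl1 coding sequence, had arms that changed in opposite directions at U180. miR-127-3p, the more abundant arm in most libraries, measured 413, 564 and 368 CPM in control skin, 524, 663 and 1004 CPM in U90 skin, 754, 915 and 823 CPM in U180 skin and 640.0, 670.4 and 438 CPM in U360 skin. The U180 libraries were all above the controls, and the U90 and U360 libraries overlapped them. Its log2 fold change was 0.67 ± 0.26 (SE) in U90 (adjusted p = 0.066), 0.91 ± 0.26 in U180 (adjusted p = 0.016) and 0.38 ± 0.26 in U360 (adjusted p = 0.27). The U180 call held in 21 of 23 alternatives (adjusted p = 0.0052 to 0.056) and ended without control replicate 1 or U180 replicate 2. The U90 difference passed without control replicate 2 (0.85) or U90 replicate 1 (0.89) and with DESeq2 (0.70), the 3 of 23 alternatives in which it did (adjusted p = 0.022 to 0.30).

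miR-127-5p, with a seed unrelated to that of its partner, measured 486, 357 and 226 CPM in control skin, 184, 186 and 223 CPM in U90 skin, 221, 206 and 169 CPM in U180 skin and 235, 257 and 242 CPM in U360 skin. All U90 and U180 libraries lay below the controls, although control replicate 3 was within a few CPM of the highest of them, and the U360 libraries overlapped the controls. The log2 fold change was -0.79 ± 0.25 in U90 (adjusted p = 0.030), -0.78 ± 0.25 in U180 (adjusted p = 0.026) and -0.47 ± 0.25 in U360 (adjusted p = 0.14). The U90 call held in 15 of 23 alternatives (adjusted p = 0.0014 to 0.15) and ended without control replicate 1 or 2, U90 replicate 1 or 2, or U90 replicate 3 and U180 replicate 1 together. The U180 call held in 16 of 23 (adjusted p = 0.0012 to 0.14) and ended without control replicate 1 or 2 or U180 replicate 2 or 3. Both calls also ended with no filter on low values, with the reduced totals and with only the groups compared in the fit. The U360 difference passed in 2 of 23, with edgeR (-0.69) and without control replicate 3 (-0.77), with an adjusted p of 0.0073 to 0.54 over the 23.

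The miR-127 arm balance shifted toward the 3p arm at U90 and U180. The 5p arm made up 54.1%, 38.8% and 38.1% of the miR-127 reads in control skin, 26.0%, 21.9% and 18.2% in U90 skin, 22.7%, 18.4% and 17.1% in U180 skin and 26.8%, 27.7% and 35.6% in U360 skin. No irradiated library reached the control range. The log2 ratio of 5p over 3p differed from control by -1.46 ± 0.31 in U90 (adjusted p = 0.0075), by -1.69 ± 0.31 in U180 (adjusted p = 0.0021) and by -0.85 ± 0.31 in U360 (adjusted p = 0.064). The U360 difference passed without control replicate 3 (-1.01) or U360 replicate 3 (-1.04), and in 4 of 19 alternatives in all (adjusted p = 0.024 to 0.23). By size this was the eighth difference of 166 hairpins at U90 and the sixth at U180, where the median absolute difference was 0.44 and 0.50. The U180 difference kept its call in all 19 alternatives (-1.85 to -1.38), and the U90 difference in 18 of 19, with the exception of the fit without U90 replicate 3 and U180 replicate 1 (-1.29, adjusted p = 0.054). The sum of both arms was 805 ± 183 CPM in control skin, 928 ± 269 CPM in U90 skin, 1029 ± 80.2 in U180 skin and 827 ± 130.2 in U360 skin (SD, n = 3 each).

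**Figure D3:**
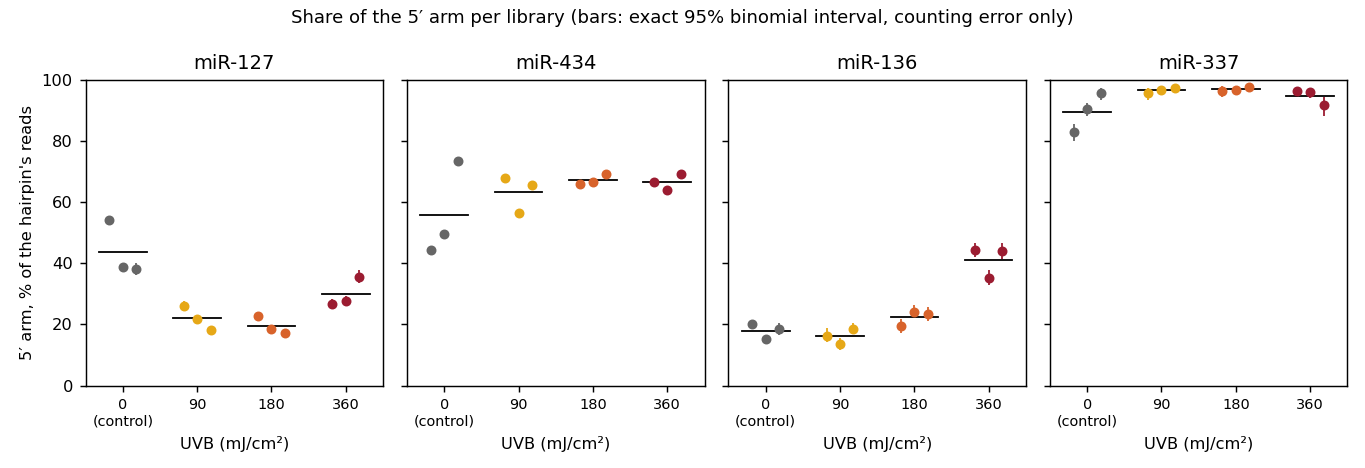
Share of the 5′ arm in the reads of each hairpin, in percent (y), per library and UVB dose (x), with exact 95% binomial intervals (Clopper-Pearson) that cover counting error only; lines are means of 3 libraries. The miR-127 share is lower in all irradiated libraries than in the controls, and the miR-136 share is 35.3% to 44.3% in U360 skin against at most 20.1% in control skin.

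miR-136 lies at the very start of the Rtl1 coding sequence. Its 5p arm fell at U90 and rose at U360, while its 3p arm fell at all doses. miR-136-5p measured 161, 88.4 and 70.1 CPM in control skin, 49.4, 40.7 and 68.8 CPM in U90 skin, 64.6, 81.8 and 63.8 CPM in U180 skin and 189.7, 143 and 193 CPM in U360 skin. The U90 libraries lay below the controls, the U180 libraries overlapped them, and of the U360 libraries 2 lay above every control. The log2 fold change was -0.94 ± 0.29 in U90 (adjusted p = 0.029), -0.52 ± 0.29 in U180 (adjusted p = 0.19) and 0.79 ± 0.29 in U360 (adjusted p = 0.041). The U90 call held in 18 of 23 alternatives (adjusted p = 0.0067 to 0.15) and ended without control replicate 1 or U90 replicate 1 or 2, with the reduced totals and with only the groups compared. The U360 call against control held in 12 of 23 alternatives (adjusted p = 0.0047 to 0.17), and ended with TMM scaling (0.65), edgeR (0.56) and DESeq2 (0.68), with no filter, with only the groups compared, and without control replicate 2 or 3, U90 replicate 1, U180 replicate 3, or U360 replicate 1 or 3.

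Between doses the difference in miR-136-5p was larger. In U360 skin it was 1.73 ± 0.29 log2 units above U90 skin (adjusted p = 0.0092) and 1.31 ± 0.29 above U180 skin (adjusted p = 0.030). All U360 libraries were above all U90 and U180 libraries. The first call ended without U90 replicate 1, U90 replicate 2 or U360 replicate 3 (adjusted p = 0.065 to 0.073 over these), and the second without U180 replicate 2 or 3 or U360 replicate 1 or 3 (adjusted p = 0.072 to 0.17 over these), with log2 fold changes of at least 1.23 throughout. In the set, 2 arms rose and 0 fell in U360 against U90, with a background of 11.2%, the other being miR-431-5p, and no arm was lower at an unadjusted p under 0.05, in edgeR or in DESeq2. In U360 against U180, miR-136-5p alone rose and 0 fell, with a background of 4.07%, 0 lower at an unadjusted p under 0.05 and 0 lower in edgeR and DESeq2. Between U180 and U90, 0 of 10 arms passed, with a background of 0%, and none passed at an unadjusted p under 0.05, in edgeR or in DESeq2.

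miR-136-3p, the more abundant arm, measured 643, 492 and 309 CPM in control skin, 253, 260.5 and 301 CPM in U90 skin, 268, 257 and 208 CPM in U180 skin and 238, 262 and 246 CPM in U360 skin. Every irradiated library was below every control, by a small margin to control replicate 3. The log2 fold change was -0.77 ± 0.24 in U90 (adjusted p = 0.030), -0.92 ± 0.24 in U180 (adjusted p = 0.011) and -0.89 ± 0.24 in U360 (adjusted p = 0.0084), and it was called at all 3 doses, as no other arm of the set was. The U90 call held in 15 of 23 alternatives (adjusted p = 0.0013 to 0.15) and ended with no filter, with the reduced totals, with only the groups compared, and without control replicate 1 or 2, U90 replicate 1 or 2, or U90 replicate 3 and U180 replicate 1 together. The U180 call held in 21 of 23 (adjusted p = 0.00044 to 0.061) and ended without control replicate 1 or U180 replicate 3. The U360 call held in 22 of 23 alternatives and ended with totals that leave out miR-21a-5p and miR-1a-3p (-0.63, adjusted p = 0.055, the highest of the 23).

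The 5p arm therefore formed a larger share of miR-136 at the highest dose. It made up 20.1%, 15.2% and 18.5% of the reads in control skin, 16.3%, 13.5% and 18.6% in U90 skin, 19.4%, 24.1% and 23.4% in U180 skin and 44.3%, 35.3% and 44.0% in U360 skin. The log2 ratio of 5p over 3p was 1.68 ± 0.27 higher in U360 than in control skin (adjusted p = 0.00044), the tenth by size of 166 hairpins, where the median absolute difference was 0.46. In U90 and U180 skin the differences from control were -0.17 ± 0.27 (adjusted p = 0.73) and 0.40 ± 0.27 (adjusted p = 0.29). The ratio was also higher in U360 than in U90 skin, by 1.85 ± 0.27 (adjusted p = 0.00061; background 11.4%), and than in U180 skin, by 1.27 ± 0.27 (adjusted p = 0.023; background 1.81%). The differences of U360 from control and from U90 kept their calls in all 19 alternatives, with ranges of 1.54 to 1.85 and 1.71 to 2.03, and that from U180 in 13 of 19, ending without U180 replicate 1, 2 or 3, U360 replicate 1 or 3, or U90 replicate 3 and U180 replicate 1 together (adjusted p = 0.0074 to 0.12 over the 19). The sum of both arms was 588 ± 213 CPM in control skin, 324 ± 39.1 CPM in U90 skin, 315 ± 36.9 in U180 skin and 424 ± 17.0 in U360 skin.

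miR-434, next to miR-136, was the most abundant hairpin of the set. miR-434-5p measured 456, 580.2 and 948 CPM in control skin, 1037, 669.6 and 1177 CPM in U90 skin, 1347, 1163 and 1165 CPM in U180 skin and 1162, 1137 and 1148 CPM in U360 skin. All U180 and U360 libraries were above the controls, and U90 replicate 2 lay within the control range. Its log2 fold change was 0.57 ± 0.26 in U90 (adjusted p = 0.12), 0.95 ± 0.26 in U180 (adjusted p = 0.014) and 0.86 ± 0.26 in U360 (adjusted p = 0.015). The last 2 calls ended with edgeR on recovered reads (0.73 for U180 and 0.66 for U360) and without control replicate 1, and that of U360 also without control replicate 2 (adjusted p over all 23 alternatives 0.00096 to 0.070 for U180 and 0.0011 to 0.080 for U360). Without control replicate 3 the U90 difference passed, at 0.86 (adjusted p over all 23 alternatives 0.012 to 0.43).

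miR-434-3p did not pass the test at any dose. It measured 571, 590.2 and 341 CPM in control skin, 488, 518 and 621 CPM in U90 skin, 698, 582 and 522 CPM in U180 skin and 583, 643 and 512 CPM in U360 skin. The groups overlapped, with log2 fold changes of 0.15 ± 0.23 in U90, 0.29 ± 0.23 in U180 and 0.25 ± 0.23 in U360 (adjusted p = 0.67, 0.36 and 0.42). The 95% interval of the U360 fold change was -0.24 to 0.73 log2 units. The 5p share was 44.4%, 49.6% and 73.6% in control skin, 68.0%, 56.4% and 65.5% in U90 skin, 65.9%, 66.7% and 69.0% in U180 skin and 66.6%, 63.9% and 69.2% in U360 skin. Control replicate 3 lay with the irradiated libraries, and the arm balance passed at no dose with it in the fit (adjusted p = 0.45, 0.22 and 0.25 for U90, U180 and U360). Without it the balance differed from control by 0.97, 1.21 and 1.17 log2 units (adjusted p = 0.010, 0.0031 and 0.0030), and it passed in no other of the 19 alternatives (adjusted p up to 0.94, 0.61 and 0.65).

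miR-337, the hairpin outside Rtl1, is dominated by its 5p arm. miR-337-3p measured 16.6, 13.7 and 6.11 CPM in control skin, 5.62, 5.39 and 5.75 CPM in U90 skin, 5.19, 4.82 and 3.56 CPM in U180 skin and 5.91, 5.98 and 8.53 CPM in U360 skin. The U90 and U180 libraries lay below the controls, with control replicate 3 the nearest, and the U360 libraries overlapped them. The log2 fold change was -0.90 ± 0.32 in U90 (adjusted p = 0.048), -1.16 ± 0.32 in U180 (adjusted p = 0.014) and -0.67 ± 0.32 in U360 (adjusted p = 0.11). The U90 call held in 5 of 22 alternatives (adjusted p = 0.0022 to 0.21). Of the libraries left out in turn it held only without control replicate 3, and the settings that ended it included a pseudocount of 0.25, no filter, the reduced totals and only the groups compared. The U180 call held in 20 of 22 (adjusted p = 0.00057 to 0.073) and ended without control replicate 1 or U180 replicate 3. The U360 difference passed in 2 of 22, with edgeR (adjusted p = 0.032) and without control replicate 3 (-1.06), with an adjusted p of 0.0049 to 0.39 over the 22.

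miR-337-5p measured 79.9, 129 and 130.2 CPM in control skin, 126, 151 and 199.9 CPM in U90 skin, 138, 141 and 137 CPM in U180 skin and 149, 143 and 93.5 CPM in U360 skin. It passed at no dose, with log2 fold changes of 0.50 ± 0.25, 0.33 ± 0.25 and 0.19 ± 0.25 in U90, U180 and U360 (adjusted p = 0.16, 0.36 and 0.60). The 5p share of the hairpin was 82.8%, 90.4% and 95.5% in control skin, 95.7% to 97.2% in U90 skin, 96.4% to 97.5% in U180 skin and 91.6% to 96.2% in U360 skin. The log2 ratio of 5p over 3p was 1.40 ± 0.42 higher in U90 (adjusted p = 0.029) and 1.49 ± 0.42 higher in U180 (adjusted p = 0.023), and 0.85 ± 0.42 in U360 (adjusted p = 0.15). Without control replicate 1 the first 2 were 0.90 and 0.998 and did not pass. The U90 call held in 10 of 18 alternatives (adjusted p = 0.0026 to 0.16) and also ended without control replicate 2, U90 replicate 2 or U90 replicate 3, with or without U180 replicate 1, and with a pseudocount of 0.25. The U180 call held in 12 of 18 (adjusted p = 0.0021 to 0.13) and also ended without control replicate 2, U180 replicate 2 or U180 replicate 3. Both ended with no filter and with only the groups compared. Without control replicate 3 the U360 difference passed, at 1.37 (0.012 to 0.52).

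**Figure D4:**
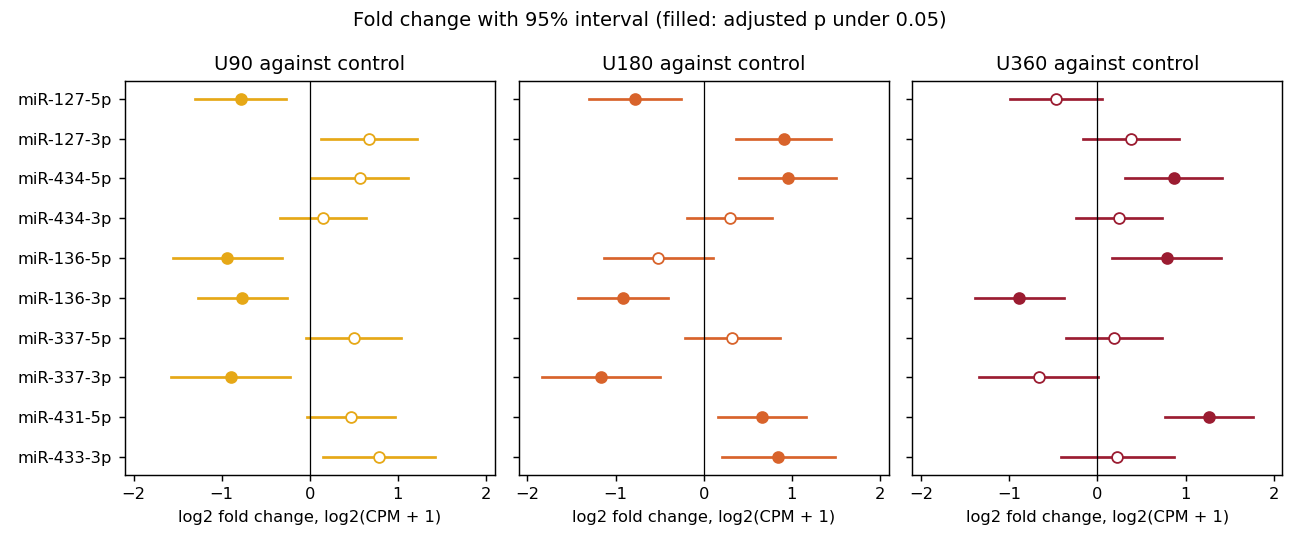
log2 fold change against control on the log2(CPM + 1) scale (x) of the 10 arms (rows) at U90, U180 and U360 (panels); bars are 95% intervals and filled points passed an adjusted p of 0.05. In the U180 panel 4 filled points lie right of 0 and 3 left of it, and in the U360 panel the miR-136 arms lie on opposite sides.

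miR-431-5p, from the hairpin at the far end of the Rtl1 coding sequence, rose at U180 and U360. It measured 19.1, 23.8 and 14.9 CPM in control skin, 24.2, 26.5 and 28.9 CPM in U90 skin, 28.6, 35.01 and 28.3 CPM in U180 skin and 40.2, 46.8 and 55.3 CPM in U360 skin. All irradiated libraries were above all controls, and all U360 libraries above every library of the lower doses. The log2 fold change was 0.46 ± 0.23 in U90 (adjusted p = 0.16), 0.66 ± 0.23 in U180 (adjusted p = 0.045) and 1.27 ± 0.23 in U360 (adjusted p = 0.00058), and U360 skin was 0.80 ± 0.23 above U90 skin (adjusted p = 0.039). The U360 call against control held in all 23 alternatives (1.10 to 1.54), that of U180 in 8 of 23 (adjusted p = 0.027 to 0.15) and that of U360 against U90 in 15 of 23 (adjusted p = 0.0053 to 0.16). The U180 call ended with a pseudocount of 5, no filter, TMM scaling (0.51), edgeR (0.51) and only the groups compared, and without control replicate 1 or 3, U90 replicate 1 or 2, any U180 library, or U360 replicate 1 or 2. That of U360 against U90 ended with no filter and without U90 replicate 1 or 2, U180 replicate 2 or 3, or any U360 library. The partner miR-431-3p, a member of the near list below, did not pass in U360 skin (0.15 ± 0.29, adjusted p = 0.71).

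miR-433-3p measured 9.92, 20.2 and 19.1 CPM in control skin, 25.4, 25.0 and 33.9 CPM in U90 skin, 26.8, 30.0 and 30.6 CPM in U180 skin and 21.4, 23.9 and 12.3 CPM in U360 skin. The U90 and U180 libraries were above all controls and the U360 libraries overlapped them. The log2 fold change was 0.79 ± 0.30 in U90 (adjusted p = 0.066), 0.85 ± 0.30 in U180 (adjusted p = 0.044) and 0.23 ± 0.30 in U360 (adjusted p = 0.59). The U180 call held in 10 of 23 alternatives (adjusted p = 0.028 to 0.22). The settings that ended it included no filter, TMM scaling (0.70), edgeR (0.70) and only the groups compared, and leaving out control replicate 1 (0.54), U90 replicate 1 or 2, any U180 library or U360 replicate 1. The U90 difference passed in 4 of 23 (adjusted p = 0.030 to 0.29), with a filter of 10 CPM, the reduced totals, DESeq2 and without control replicate 3.

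The arm balance differed in many other hairpins as well. Of the 166 hairpins with both arms tested, 22.3% passed at U90, 19.3% at U180 and 23.5% at U360, and of the 4 hairpins of the set 2, 2 and 1 passed. Hairpins whose arms were both called, in opposite directions, were fewer. They were miR-199b alone at U90 (0.602% of 166), miR-127 and miR-199b at U180 (1.2%), and miR-136 and miR-199b at U360 (1.2%). miR-199b-3p has the same values as miR-199a-3p in the table, so that hairpin is uncertain.

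**Figure D5:**
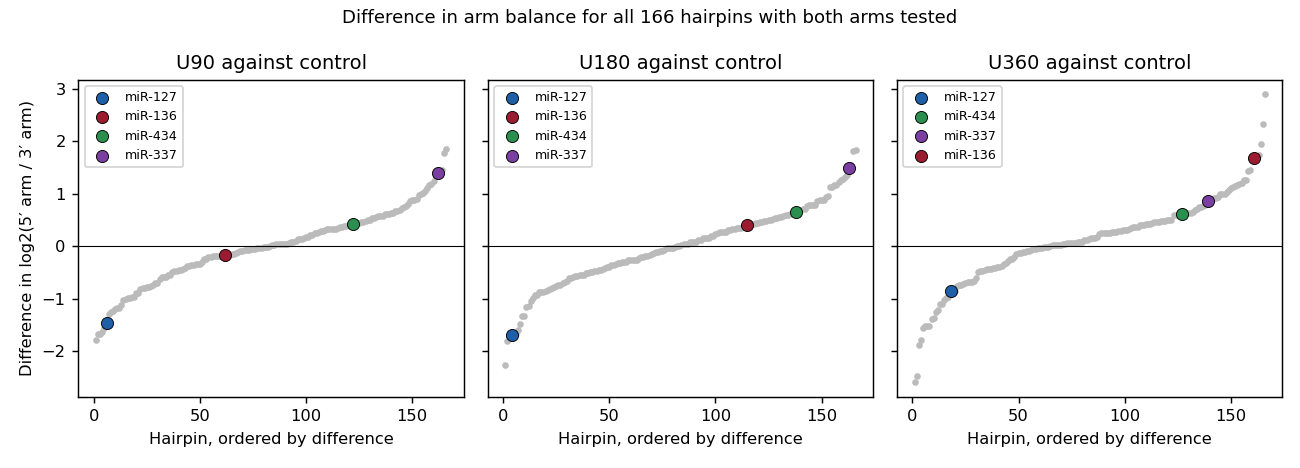
Difference from control in log2(5′ arm / 3′ arm) (y) for the 166 hairpins with both arms tested, ordered by size (x), at each dose; grey points are other hairpins and coloured points those of the set. miR-127 lies near the low end at U90 and U180 (-1.46 and -1.69) and miR-136 near the high end at U360 (1.68).

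Markers of other cell types also differed between the groups, and their part in these results was not tested. The skeletal muscle list (miR-206-3p, miR-133b-3p, miR-133a-3p and miR-1a-3p, all in the table and none at 0) summed to 193259 to 228888 CPM in control skin, 157798 to 173522 CPM in U90 skin, 82046 to 187147 in U180 skin and 153621 to 202440 in U360 skin. Its mean log2 level relative to the control mean was lower in control replicate 3 (-0.67) than in control replicates 1 and 2 (0.29 and 0.38). It lay at -1.57 to -0.27 in the irradiated libraries, with the lowest value in U180 replicate 3. That library stood apart from its group, with a skeletal muscle sum of 82046 CPM against 164886 and 187147 CPM in U180 replicates 1 and 2. Among controls, replicate 3 was also the lowest for both arms of miR-127 and miR-136 and for miR-434-3p, miR-337-3p and miR-431-5p. These include arms that fell and arms that rose after UVB. Of the 4 skeletal muscle arms 2, 2 and 1 fell in U90, U180 and U360. The epithelial list of 7 arms, none at 0, summed to 81219 to 94933 CPM in control skin, 28121 to 88669 CPM in U90 skin, 41085 to 95199.7 in U180 skin and 11646 to 36482 in U360 skin, and 3, 3 and 7 of its arms fell. The myeloid list of 3 arms, none at 0, summed to 82.1 to 119.8 CPM in control skin, 126 to 844 CPM in U90 skin, 151 to 397 in U180 skin and 1538 to 2157 in U360 skin, and 1, 2 and 3 of its arms rose. The miR-136-5p and miR-431-5p levels and the miR-136 5p share were also higher at U360 than in control skin. The epithelial sum was 28121 CPM in U90 replicate 3 and 36482 CPM in U360 replicate 2. In these 2 libraries miR-136-5p was 68.8 and 143 CPM and miR-431-5p 28.9 and 46.8 CPM. The miR-136 5p share was 18.6% and 35.3%, and the myeloid sum 844 and 1538 CPM. In U360 replicates 1 and 3 the epithelial sum was 13204 and 11646 CPM. There miR-136-5p was 189.7 and 193 CPM, miR-431-5p 40.2 and 55.3 CPM, and the miR-136 5p share 44.3% and 44%. Whether these are linked was not tested. Of the 5 fibroblast and smooth muscle arms, 1, 3 and 3 rose and 0, 2 and 2 fell, with a summed level of 73459 to 103463 CPM in control skin, 84588.5 to 107770 in U90 skin, 78156 to 95521 in U180 skin and 73317 to 90991 in U360 skin.

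The other miRNAs of the locus fall into a near and a downstream list. The near list holds 11 further arms of hairpins in or beside the set, of which 10 were tested. In U90 skin 0 rose and 1 fell, in U180 skin 1 rose and 1 fell, and in U360 skin 4 rose and 1 fell. The shares called over all tested arms were 25.6%, 30.7% and 39.8%, so the near list was below them at U90 and U180. Its median log2 fold changes were 0.26, 0.44 and 0.39. miR-770-3p rose at U180 (0.89) and U360 (1.01), and miR-433-5p (0.82), miR-493-3p (0.98) and miR-493-5p at U360. miR-493-5p, the most abundant of them, averaged 36.6 ± 3.74 CPM in U360 skin against 19.4 ± 0.832 CPM in control skin (log2 fold change 0.88 ± 0.24, adjusted p = 0.0086). miR-540-5p, the arm that fell at each dose, had log2 fold changes of -1.11, -1.79 and -1.55 in U90, U180 and U360 skin (adjusted p = 0.046, 0.0046 and 0.0049). miR-540-3p, its partner, did not pass (0.19, 0.47 and -0.04). miR-673-5p and miR-665-3p did not pass at any dose. miR-770-3p, miR-433-5p, miR-493-3p, miR-540-5p and miR-431-3p were named after their values were seen.

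The downstream list holds 81 arms of the Rian and Mirg stretch, of which 59 were tested. In U90, U180 and U360 skin 13, 16 and 13 rose and 1, 2 and 4 fell, with median log2 fold changes of 0.30, 0.41 and 0.30. Of all 590 tested arms 13.2%, 16.6% and 20.2% rose and 12.4%, 14.1% and 19.7% fell. The share of the list called in either direction was thus not above that of all arms (25.6%, 30.7% and 39.8%). By direction, the share that rose was above that of all arms at each dose, and the share that fell was below it. Whether the list differed from all arms in this was not tested. The arms that fell were miR-376b-5p at each dose (-1.26, -1.16 and -1.04), miR-539-5p at U180 (-0.94), and miR-376b-3p (-0.60), miR-299a-3p and miR-299b-3p (-0.57 each) at U360, named after their values were seen. miR-299a-3p and miR-299b-3p had nearly the same values and may share reads. miR-379-5p, its most abundant arm, averaged 4020 ± 330 CPM in U360 skin against 1565 ± 172 CPM in control skin (log2 fold change 1.36 ± 0.21, adjusted p = 0.00014). miR-381-3p (-0.45 ± 0.33, adjusted p = 0.19), miR-541-5p (0.50 ± 0.22, adjusted p = 0.080) and miR-411-5p (0.61 ± 0.24, adjusted p = 0.055) did not pass in U360 skin.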

How the data were processed

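Per the labels' protocols, RNA of whole skin was extracted with Trizol, and small RNA libraries were built with a NEBNext ligation kit and read on an Illumina NextSeq. The build was mm9, per the submitters' processing notes. How reads were trimmed, aligned and counted, and the miRBase release, is not given in the sources used here. Ligation favours some RNA ends, so an arm is best compared with itself across libraries.

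The authors deposited CPM for 1519 mature arms in 12 libraries. All values were whole multiples of 1 read (100% within a tolerance of 0.01 reads), which gives back totals of 3164422 to 8063815 reads. In CPM, 3 reads (the limit that a count of 0 allows) were worth 0.372 to 0.948 CPM. Reads carry no molecular identifiers, so the exact 95% binomial intervals of arm shares cover counting error only. No libraries were identical.

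Groups came from the sample titles. log2(CPM + 1), with a pseudocount of 1, was fitted with limma-trend (limma 3.58.1, R 4.3.3) on the 590 arms that reached 1 CPM in 3 or more libraries. The model had 1 mean for each dose group, all 12 libraries and no replicate term. P-values are two-sided and Benjamini-Hochberg adjusted over all arms of a comparison, with a threshold of 0.05. An exact permutation test of 3 against 3 cannot give a p under 0.1 and was not used. Arm balance, log2(5p CPM + 1) minus log2(3p CPM + 1), was fitted the same way over the 166 hairpins with both arms tested. The fits were tested on simulated independent counts around a common mean per arm, with changes set at U360 only. These simulations held no outlying libraries, so they do not cover the dependence on single libraries. Alternatives were other pseudocounts and filters, TMM and reduced totals, a replicate term, only the groups compared, and left-out libraries. They also included edgeR 4.0.16 (with TMM factors) and DESeq2 1.42.0 (with its own size factors) on the recovered reads.

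The members, the lists and the alternatives were chosen with earlier results of these data known. All 10 members are named. Of the near and downstream lists the 4 arms with the highest mean CPM are named. For miR-127-3p, miR-434-3p, miR-136-5p and miR-337-3p the 5 most alike arms are named, by root mean square difference over the 12 libraries. The contrasts of miR-136 arm balance between doses were added after seeing the data. Mature and hairpin sequences are from RefSeq (GRCm38.p6), and Rtl1 and its positions from GENCODE vM21 (GRCm38), matched by name and by sequence, with no coordinates converted from mm9.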

Additional observations from a re-analysis of the deposited data

How the results depend on the processing

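The number of the 10 arms called changed by more than 1.5 times under these settings. With no filter on low values it was 1 at U90, against 4 in the reported fit, 4 at U180 against 7, 1 in U360 against U90 (2 reported) and 4 for any difference among groups (7 reported). With totals that leave out miR-21a-5p and miR-1a-3p it was 1 at U90 and 4 for any difference. With only the groups compared it was 0 at U90 and 4 at U180, where edgeR also gave 4 (1 higher and 3 lower, against 4 and 3). At U360 edgeR gave 4 as the reported fit did, but 1 higher and 3 lower, against 3 and 1. DESeq2 gave 2 in U360 against U180 (1 reported). Without U90 replicate 3 and U180 replicate 1 together it was 1 at U90. Leaving out 1 library at a time gave 0 to 6 at U90, 0 to 7 at U180, 2 to 5 at U360, 0 in every fit for U180 against U90, 0 to 2 in U360 against U90, 0 to 1 in U360 against U180, and 2 to 7 for any difference. Arm balance was called for 1 of the 4 hairpins at U90 (2 reported) with a pseudocount of 0.25, with no filter, with a filter of 10 CPM and with only the groups compared, and for 0 without U90 replicate 3 and U180 replicate 1. It was called for 1 at U180 (2 reported) with no filter, with a filter of 10 CPM and with only the groups compared, and for 2 at U360 (1 reported) with a pseudocount of 5 and with a filter of 10 CPM. At 10 CPM miR-337-3p is not tested, so that hairpin drops out. Leaving out 1 library gave 1 to 3, 1 to 3 and 1 to 4 hairpins at U90, U180 and U360. Other causes were not tested.

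The directions that turned belonged to differences that had not passed. miR-434-3p was -0.11 in U90 skin and -0.0096 in U360 skin without control replicate 3, and without control replicate 1 miR-337-5p was -0.045 and miR-433-3p -0.080 in U360 skin. The highest values with 1 library left out were 0.29 and 0.39 for miR-434-3p in U90 and U360 skin, 0.40 for miR-337-5p and 0.50 for miR-433-3p. Over 47 single results, 863 values kept direction and call, 132 lost the call, 20 gained it and 4 turned. The median of all arms moved to 0.11, 0.15 and 0.22 at U90, U180 and U360 with the reduced totals, and to -0.14 at U360 with edgeR.

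Same-numbered libraries of different groups had a mean correlation of deviations of 0.0077, beside -0.0039 for differently numbered pairs. Of the same-numbered pairs, 6 of 18 were over 0.1 (range -0.22 to 0.24), and 4 of 12 libraries correlated best with their own number. Low correlations cannot show whether the samples were paired. With the replicate block 3 arms were called at U90, 6 at U180, 4 at U360, 0 in U180 against U90, 2 in U360 against U90, 1 in U360 against U180 and 7 for any difference, and arm balance for 2, 2 and 1 hairpins. The calls that ended with the block were those of miR-337-3p at U90 (adjusted p = 0.055) and miR-433-3p at U180 (adjusted p = 0.050, just above the threshold), and it changed no other call. With 3 libraries a group, the 95% interval of a fold change at U360 had a median half-width of 0.63 log2 units, so smaller differences were often not detectable.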

Other observations

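The arms of the set fell into different patterns across the 12 libraries when each was centred on its own mean log2(CPM + 1). The root mean square difference was 0.17 log2 units between miR-127-5p and miR-136-3p, 0.21 between miR-127-5p and miR-337-3p and 0.23 between miR-136-3p and miR-337-3p, arms of 3 separate hairpins. It was 0.24 between miR-433-3p and miR-337-5p and 0.27 between miR-433-3p and miR-127-3p. These pairs were the closest in the set. Arms of the same hairpin were farther apart than these, at 0.72 for miR-127, 0.50 for miR-434, 0.75 for miR-136 and 0.78 for miR-337. Arms of different hairpins were up to 1.09 apart (miR-136-5p and miR-433-3p), so partner arms were not the least alike. These values share libraries and depth and are descriptions, with no test.

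Outside the set, the arm most like miR-127-3p was miR-494-3p of the same locus (0.23), followed by miR-488-3p, miR-501-3p, miR-199a-3p and miR-199b-3p (0.23 to 0.24), the last pair having identical values. For miR-434-3p these were miR-532-5p (0.17), miR-149-5p, miR-487b-3p, miR-126a-5p and miR-191-5p (0.22), of which miR-487b-3p belongs to the locus. For miR-337-3p they were miR-29b-3p (0.21), miR-26a-5p, miR-652-3p, miR-326-3p and miR-151-5p (0.27), none of them of the locus. The arms nearest to miR-136-5p were farther from it, and were miR-350-3p (0.44), miR-425-5p, miR-378c, miR-16-5p and miR-1943-5p (0.50).

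The summed level of endothelial markers (miR-126a-3p and miR-126a-5p, neither at 0) was 8303 to 8774 CPM in control skin, 11276 to 16516 CPM in U90 skin, 16862 to 20385 CPM in U180 skin and 21890.5 to 25249 CPM in U360 skin, and 1 of the 2 arms rose at each dose. Of the 3 neural arms 0, 1 and 0 rose and none fell. Their sum was 236 to 535 CPM in control skin and 464 to 508 CPM in U90 skin. In U180 and U360 skin it was 316 to 693 CPM and 265 to 333 CPM. The median log2 fold change of the neural arms was 0.49, 0.57 and -0.39 at U90, U180 and U360. Of the 2 red blood cell arms none rose or fell. Their sum was 443 to 825 CPM in control skin and 431 to 1002 CPM in U90 skin. In U180 and U360 skin it was 265 to 666 CPM and 465 to 1074 CPM. The part of these lists in the results was not tested.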
